A study of Homo sapiens with 2 samples.

Results

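The genes described here lie next to each other on the short arm of human chromosome 1, in the bands named 1p21 to 1p11 in their working label, and were picked because neighbouring genes there shifted upward together between a lung cancer line and its bone-metastatic subline. HARA is a squamous cell carcinoma line of human lung, and HARA-B4 is the subline derived from it that spreads strongly to bone. Both were grown in the same serum-containing medium with antibiotics, with no treatment, and the sources used here do not say whether HARA-B4 is a single clone. Biotin-labelled cRNA of each line was hybridised to 1 Affymetrix array, so each line is 1 sample (n = 1), and every value below compares 2 arrays, without a p-value or an estimate of biological error.

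Of 53 listed genes, out of 19735 genes named on the arrays, 50 were analysed and 3 are not analysed here. Background was set at a log2 signal of 4.76 (a signal of 27.1), the 95th percentile of 165 probe sets for olfactory, taste and vomeronasal receptor genes. By that level 49 of the 50 were above background on both arrays, against 10202 of all 19735 genes, so the list is rich in expressed genes. Where 2 signals follow a gene below, HARA comes first and HARA-B4 second, with the log2 difference (HARA-B4 minus HARA) in parentheses. ATXN7L2, a relative of a chromatin complex subunit, was at background on both, with signals of 15.8 and 7.09. Because the list was chosen on this same contrast, its differences are a description and support no statement by themselves.

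These genes form no pathway and are joined by position alone. They encode parts of the machinery that cuts, splices and modifies RNA, regulators of transcription and chromatin, G proteins and polarity proteins that pass signals inward from the cell membrane, transporters, and proteins of vesicles and the cell surface. Many are used by most cell types, and many of the proteins work with partners or have paralogs encoded elsewhere in the genome. The arrays measured RNA only, and the sources used here give no DNA copy number.

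The arrays were on similar scales, with median probe set signals of 17.3 and 16.2. Over the 10202 genes above background on both arrays the log2 difference, HARA-B4 minus HARA, was centred on a median of 0.02, with an SD of 0.55. Probe sets of 1 gene on the same arrays gave a within-gene SD of 0.30 in the log2 difference, over 4830 genes. That is a spread between different probe sets of a gene, not between repeat measurements, and it says nothing of repeat cultures. Squamous markers fitted the label, since 7 of 8 measured were above background on both arrays, with CLCA2 at background (summed signal 15550 in HARA and 19186 in HARA-B4). Of 7 fibroblast markers 1 was above background on each array, with summed signals of 105 and 224, the difference being mainly FAP, and COL1A2, COL3A1, DCN and LUM were at background. The summed signals of 5 blood markers (75.8 and 74.1), 4 endothelial markers (64.2 and 58.7) and 4 glandular lung markers (156 and 144) were similar on the arrays. Of the glandular lung markers, 3 were above background in HARA and 2 in HARA-B4, from NKX2-1, SFTPB and SFTPC. Of the blood markers, 1 was above background in HARA and 2 in HARA-B4, from HBB and ITGAM. The endothelial marker PECAM1 was the only 1 of its list above background. The part of these cell types in the results was not tested.

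Most of the 1p genes stood higher in HARA-B4. The median log2 difference of the 49 was 0.67, a 1.59-fold higher signal, and the values ran from -0.99 for CDC14A to 2.58 for IGSF3. The difference was above 0 in 43 of 49, where it was above 0 in 52.2% of all genes. It was at least 1.5-fold in 29 (9.57% of all genes), at least 2-fold in 16 (3.13% of all genes) and at least 3-fold in 2 (1.03% of all genes). In the other direction, 1 of the 49 was at least 1.5-fold lower (10.2% of all genes) and 0 were at least 2-fold lower (3.57% of all genes). Since the list was picked for this shift, nothing is read from these shares. The genes were not unusual in level, with a median mean log2 signal of 8.22 against 7.85 over all genes.

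**Figure D1:**
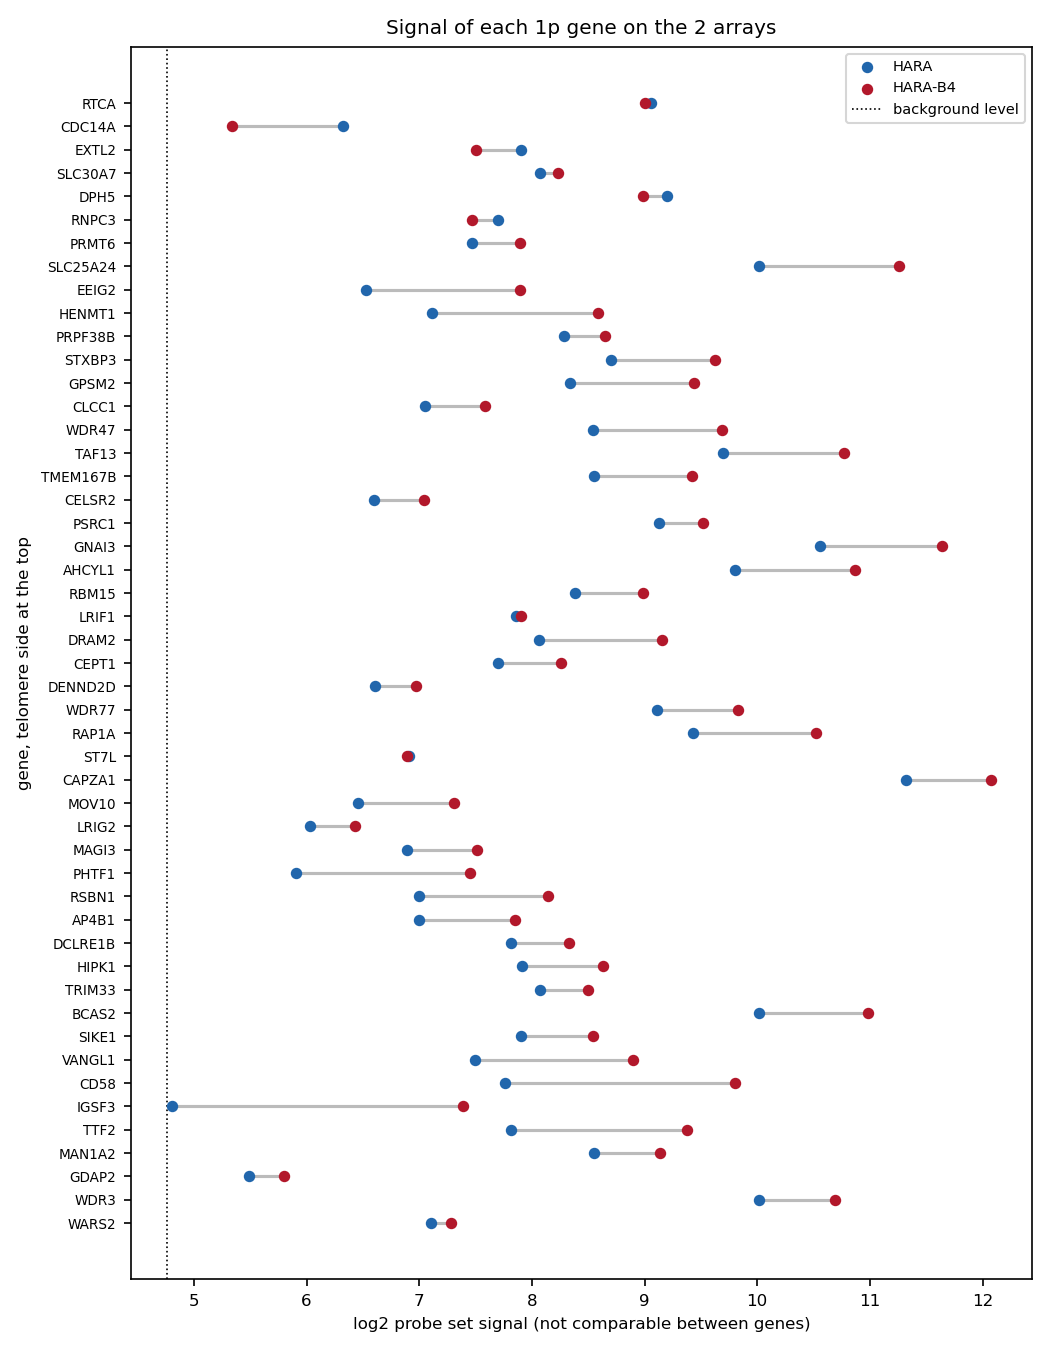
Log2 probe set signal (x axis) of the 49 genes above background, in chromosomal order from the telomere side at the top, in HARA (blue) and HARA-B4 (red), with 1 array each and the background level dotted. Red points lie to the right of blue ones in 43 genes, while 5 of the uppermost 6 genes, and ST7L, run the other way.

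Gene order showed where the shift began and ended. The 6 listed genes nearest the telomere, RTCA to RNPC3, had differences from -0.99 to 0.16 with a median of -0.22, so that end of the list goes against the label "higher in HARA-B4". From PRMT6 to WARS2, 42 of 43 were above 0 and the median was 0.75. This division was made after the values were seen and is given with no test. The running median of 11 successive genes was -0.16 around CDC14A, 0.37 around PRMT6 and 1.11 around HENMT1. It stayed between 0.41 and 1.11 from VAV3 to MAN1A2, and declined to 0.31 around WARS2. On the rest of chromosome 1 running medians of 11 lay between -0.64, around TPR, and 0.95, around SPRR3 in the cornified envelope gene cluster of the long arm.

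**Figure D2:**
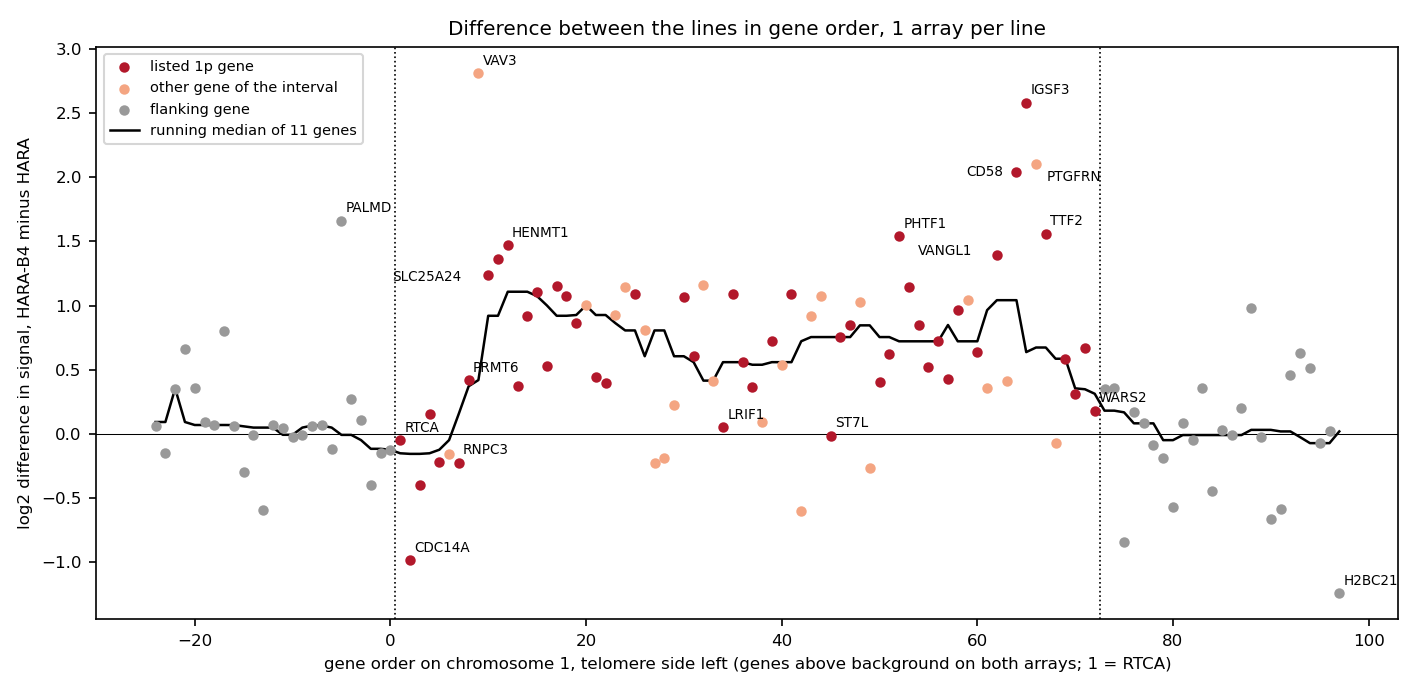
Log2 difference in signal, HARA-B4 minus HARA (y axis), against gene order on chromosome 1 (x axis), for listed genes (red), other genes between them (light orange) and 25 flanking genes on each side (grey), with dotted lines at the ends of the list and a black running median of 11 genes. The running median rises between RNPC3 and SLC25A24, reaches 1.11, and is back near 0 beyond WARS2.

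The flanks were level. In the 25 genes next to RTCA on the telomere side the median was 0.06, with 1 gene at least 2-fold higher and 0 lower. That gene was PALMD, which encodes palmdelphin, with a difference of 1.66. In the 25 genes beyond WARS2, which cross the centromere into the long arm, the median was 0.02, with 0 at least 2-fold higher and 1 lower, the histone gene H2BC21 (-1.24). The remaining 959 genes of chromosome 1 outside the interval had a median of 0.04, and 2.50% of them were at least 2-fold higher.

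Genes that lie between the listed ones but are not on the list were higher too in most of those above background. Of 86 such genes, 23 were above background on both arrays, with a median of 0.54; 17 were above 0 and 8 (34.8%) were at least 2-fold higher, with 0 at least 2-fold lower. With no background filter the median over all 86 was -0.044, and with a background raised by 1 on the log2 scale it was 0.96. They lie in the stretch that was chosen for its shift, so this is no independent support. VAV3 had signals of 35.3 in HARA, close to background, and 249 in HARA-B4 (2.81). PTGFRN, a membrane partner of tetraspanins, had signals of 365 and 1569 (2.10). LAMTOR5, a subunit of the Ragulator complex on lysosomes, had signals of 1185 and 2655 (1.16). The other 5 at 2-fold were CYB561D1 (1.14), CTTNBP2NL (1.08), DENND2C (1.04), the small GTPase RHOC (1.03) and SARS1, the cytosolic seryl-tRNA synthetase (1.00).

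Not every expressed gene of the stretch followed. The glutathione transferase genes GSTM1 (-0.23), GSTM5 (-0.19) and GSTM3 (0.23) sit side by side within it, and the probe sets of all 3 end in _x_at or _s_at, which can match several transcripts or genes. GSTM1 and GSTM5 were close to background, with HARA signals of 35.9 and 32.5. INKA2-AS1, an antisense RNA, was the 1 unlisted gene above background on both arrays that was at least 1.5-fold lower, with signals of 47.4 and 31.2 (-0.60). Among listed genes, LRIF1, which works with the silencing protein SMCHD1, had signals of 231 in HARA and 240 in HARA-B4 (0.05). ST7L had 120 and 119 (-0.02) by its brightest probe set, but 0.48 and 0.64 by 2 dimmer ones.

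**Figure D3:**
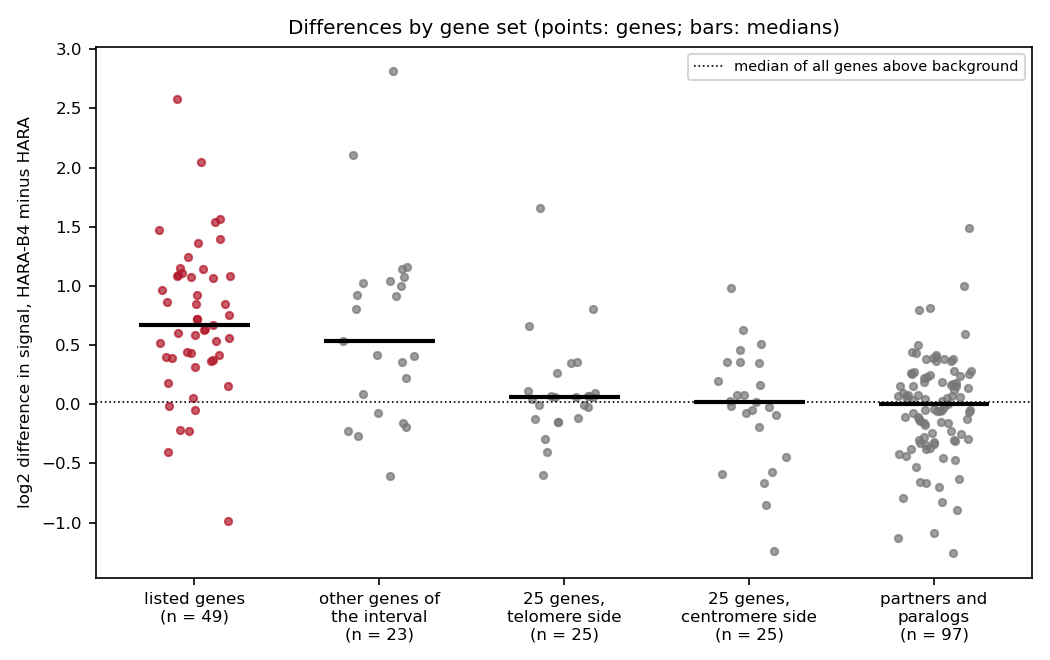
Log2 difference in signal, HARA-B4 minus HARA (y axis), for each gene (points) of 5 sets, with the set median as a bar and the median of all genes above background dotted. The listed genes (median 0.67) and the other genes of the interval (0.54) lie above both flanks (0.06 and 0.02) and above the partners and paralogs (0.00).

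Some of these genes start back to back from a shared stretch of DNA. Pairs were sought with starts on opposite strands at most 250 bases apart in the RefSeq promoter table of GRCh38.p14. Both neighbours had to be above background on both arrays, with at least 1 of them listed. Pairs whose starts nearly coincide, or whose transcripts overlap at their starts, were left out. The interval held 4 pairs by these rules. The sequence between the 2 starts is shown because any promoter element in it lies upstream of both genes. Each is written 5′ to 3′ on the plus strand, with capitals marking matches on either strand to GGGCGG (the GC box), CCGGAAG (the core of ETS factor sites), CCAAT or AAGATGGC (the core of YY1 sites).
DPH5/DPH5-DT: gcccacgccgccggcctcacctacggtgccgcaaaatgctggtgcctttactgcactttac
DRAM2/CEPT1: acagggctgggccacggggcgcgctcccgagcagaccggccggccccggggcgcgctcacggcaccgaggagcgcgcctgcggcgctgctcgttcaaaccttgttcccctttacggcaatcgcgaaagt
WDR77/ATP5PB: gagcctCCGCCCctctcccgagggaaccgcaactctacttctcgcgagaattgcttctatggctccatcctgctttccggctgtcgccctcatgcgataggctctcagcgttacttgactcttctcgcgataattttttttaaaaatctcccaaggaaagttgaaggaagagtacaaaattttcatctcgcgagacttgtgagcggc
GDAP2/WDR3: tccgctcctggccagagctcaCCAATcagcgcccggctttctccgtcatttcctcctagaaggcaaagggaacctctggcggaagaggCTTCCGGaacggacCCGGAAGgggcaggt

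The first of these stretches, chr1:101025785-101025845, lies in the telomere-side part of the list, which did not shift. The others lie inside the shifted part. DPH5 differed by -0.22 and its divergent transcript DPH5-DT by -0.16. Across chr1:111140094-111140222, DRAM2 had signals of 268 and 569 (1.09) and CEPT1, an enzyme of phospholipid synthesis, 208 and 306 (0.56). Across chr1:111449257-111449463, WDR77 had signals of 552 and 911 (0.72) and ATP5PB, a subunit of the mitochondrial ATP synthase, 4457 and 6473 (0.54). Across chr1:117929622-117929738, GDAP2 had signals of 45.0 and 55.9 (0.31) and WDR3 1034 and 1649 (0.67). Within each pair both genes had the same sign by their brightest probe sets, but the other DPH5 probe sets above background ran from -0.13 to 0.23.

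Promoter windows of the listed genes were close in GC content to those of expressed genes in general. Of the 49 genes, 44 had a RefSeq promoter (250 bases before to 50 after the start), with a median GC content of 62.2%, against 65.3% for 8470 promoters of genes above background and 58.3% for all 27305. GGGCGG was present on either strand in 65.9% of the 44, in 71.7% of promoters of genes above background and in 44.6% of all. CCAAT was in 36.4%, 38.1% and 35.7%, and CCGGAAG in 18.2%, 21.2% and 10.7%. AAGATGGC was in 5 of 44 (11.4%), 6.07% and 3.03%, namely PRPF38B, WDR77, ST7L, CAPZA1 and WARS2. The palindromic NRF1 site was in RTCA alone (2.27%), 2.59% and 1.36%, and TATAAA in 0 of 44, 5.14% and 11.95%. None of these motifs contains another, and a match is only a run of letters. By strand, the median difference was 0.67 in 25 genes of the plus strand and 0.64 in 19 of the minus strand.

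The list was picked for its shift, so the counts by role group that follow are a description and set no role apart. Genes of RNA processing and translation had a median difference of 0.49, with 1 of 10 at least 2-fold higher (3.13% of all genes). HENMT1, the methyltransferase that modifies the ends of piRNAs, had signals of 138 and 384 (1.47). BCAS2, a subunit of the PRP19 splicing complex, had 1037 and 2023 (0.96). MOV10, an RNA helicase of RNA-protein granules, had 88.0 and 158 (0.85). These 3 lie in the shifted part. Lower on the scale were WDR3, which helps assemble the small ribosomal subunit (0.67), RBM15, which guides the m6A methyltransferase to RNA (0.60, and 0.15 to 0.60 over its 5 probe sets above background), the splicing factor PRPF38B (0.37) and WARS2, the mitochondrial tryptophanyl-tRNA synthetase (0.18). The other 3 lie nearest the telomere. RTCA, the RNA terminal phosphate cyclase, had signals of 532 and 514 (-0.05). DPH5, an enzyme of diphthamide synthesis on elongation factor, had 589 and 506 (-0.22). RNPC3, a protein of the minor spliceosome, had 207 and 177 (-0.23). All 3 of these differences are within the within-gene SD of 0.30.

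Genes of transcription, chromatin and DNA repair were higher in all 10 above background (52.2% of all genes were above 0). Their median was 0.72, and 4 were at least 2-fold higher (3.13% of all genes). TTF2, a factor that releases RNA polymerase from DNA, had signals of 225 and 664 (1.56). PHTF1 had 60.2 and 175 (1.54) by its brightest probe set, and 0.47 and 0.79 by the other ones, so its size depends on the probe set. RSBN1 had 128 and 283 (1.14, and 0.61 to 1.22 over its 5 probe sets above background). TAF13, a subunit of TFIID, had 828 and 1742 (1.07). The 4 differ in position, since TAF13 lies nearer the telomere and TTF2 nearer the centromere. The values were smaller for WDR77, the cofactor of the arginine methyltransferase PRMT5 (0.72), the nuclear kinase HIPK1 (0.72), DCLRE1B, the telomere nuclease Apollo (0.52), TRIM33, a ubiquitin ligase that acts on SMAD4 (0.43), PRMT6, a histone arginine methyltransferase (0.42), and LRIF1. For TRIM33 this is the brightest probe set, and its other probe sets above background gave 0.88 and 1.05, so its size also depends on the probe set.

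Genes of G proteins, receptors and signalling were also higher in all 9 above background (52.2% of all genes were above 0). Their median was 0.64, and 4 were at least 2-fold higher (3.13% of all genes). VANGL1, a core protein of planar cell polarity, had signals of 181 in HARA and 476 in HARA-B4 (1.40). GPSM2, which links inhibitory G proteins to the spindle, had 323 and 696 (1.11). RAP1A, a small GTPase of the RAS family that controls integrin adhesion, had 689 and 1467 (1.09). GNAI3, an inhibitory G protein alpha subunit to which GPSM2 binds, had 1503 and 3193 (1.09). Probe sets above background differed by 0.88 to 1.09 for GNAI3, 0.83 to 1.17 for GPSM2, 0.75 to 1.40 for VANGL1 and 0.95 to 1.09 for RAP1A. The others were SIKE1, which restrains the kinases TBK1 and IKK-epsilon (0.64), the scaffold MAGI3 (0.63), the polarity cadherin CELSR2 (0.44), the membrane protein LRIG2 (0.40) and DENND2D, an exchange factor for Rab GTPases (0.36).

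Of 4 cytoskeleton and cell division genes, WDR47, a protein of microtubules, had signals of 372 and 826 (1.15). CAPZA1, an actin capping subunit, had 2559 and 4316 (0.75), and PSRC1, a spindle protein, had 558 and 734 (0.40). CDC14A, a phosphatase that counters cyclin-dependent kinases, went the other way, with 80.1 in HARA and 40.4 in HARA-B4 (-0.99). A second probe set of CDC14A gave -0.62. Among listed genes above background on both arrays, CDC14A was the only one at least 1.5-fold lower.

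Genes of transport, vesicles and organelle membranes were higher in all 10 above background (52.2% of all genes were above 0). Their median was 0.86, and 3 were at least 2-fold higher (3.13% of all genes). SLC25A24, a mitochondrial carrier of ATP-magnesium and phosphate, had signals of 1034 and 2446 (1.24). DRAM2, a lysosomal membrane protein of autophagy, has its signals given with its promoter above (1.09, and 0.70 by its other probe set). AHCYL1, which binds the inositol trisphosphate receptor, had 891 and 1867 (1.07), and its 3 probe sets above background gave 1.01 to 1.07. STXBP3, a regulator of membrane fusion at the plasma membrane, followed (0.92), with the Golgi protein TMEM167B (0.86), AP4B1 of the AP-4 adaptor (0.85), CEPT1 (0.56) and CLCC1, a chloride channel of the endoplasmic reticulum (0.53). GDAP2 (0.31 by its brightest probe set, 1.10 by another close to background in HARA) and SLC30A7, the zinc transporter of the Golgi (0.16), were lowest. SLC30A7 lies in the telomere-side part of the list.

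The glycosylation and cell surface group held the largest values. IGSF3, an immunoglobulin superfamily membrane protein, had signals of 27.9 in HARA, just above background, and 167 in HARA-B4 (2.58). Another probe set of IGSF3 had 41.1 and 39.0 (-0.08), so the difference depends on the probe set. The one used is the dimmer of these in HARA and the brighter in HARA-B4. A further one, below background on both arrays, had 3.98 and 23.4 (2.56). CD58, the adhesion ligand of CD2 on T cells, had 217 and 893 (2.04), and its other 2 probe sets above background gave 1.55 and 1.58. All 3 end in _x_at or _s_at, and without such probe sets CD58 was not above background on both arrays. CD58, IGSF3 and the unlisted PTGFRN are immunoglobulin superfamily genes that stand near each other, and the 6 genes above background from VANGL1 to TTF2 had a median of 1.80, a stretch picked after its values were seen. MAN1A2, a Golgi mannosidase that trims N-glycans, had 376 and 564 (0.59). EXTL2, a glycosyltransferase of heparan sulfate synthesis in the telomere-side part of the list, had 240 and 181 (-0.40). Of 2 genes in no group, EEIG2 had 92.5 and 238 (1.37), and the other was ST7L.

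Partners and paralogs encoded outside the interval did not share the shift. Of 112 such genes on a list drawn from general knowledge, with earlier results of these data known, 97 were above background on both arrays. Some of the 97 are listed with a 1p gene that was not analysed here or was at background. The median of the 97 was 0.00, with 49 above 0 and 48 below, where 52.2% of all genes were above 0. Of the 97, 1 was at least 2-fold higher (3.13% of all genes) and 3 at least 2-fold lower (3.57% of all genes). In 30 of 36 listed genes with such a partner the difference was above that of every partner. The 6 exceptions were RTCA, CDC14A, EXTL2, DPH5 and RNPC3, at the telomere-side end of the list, and DCLRE1B. These counts lean on the choice of the 1p genes for their high values and are a description.

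**Figure D4:**
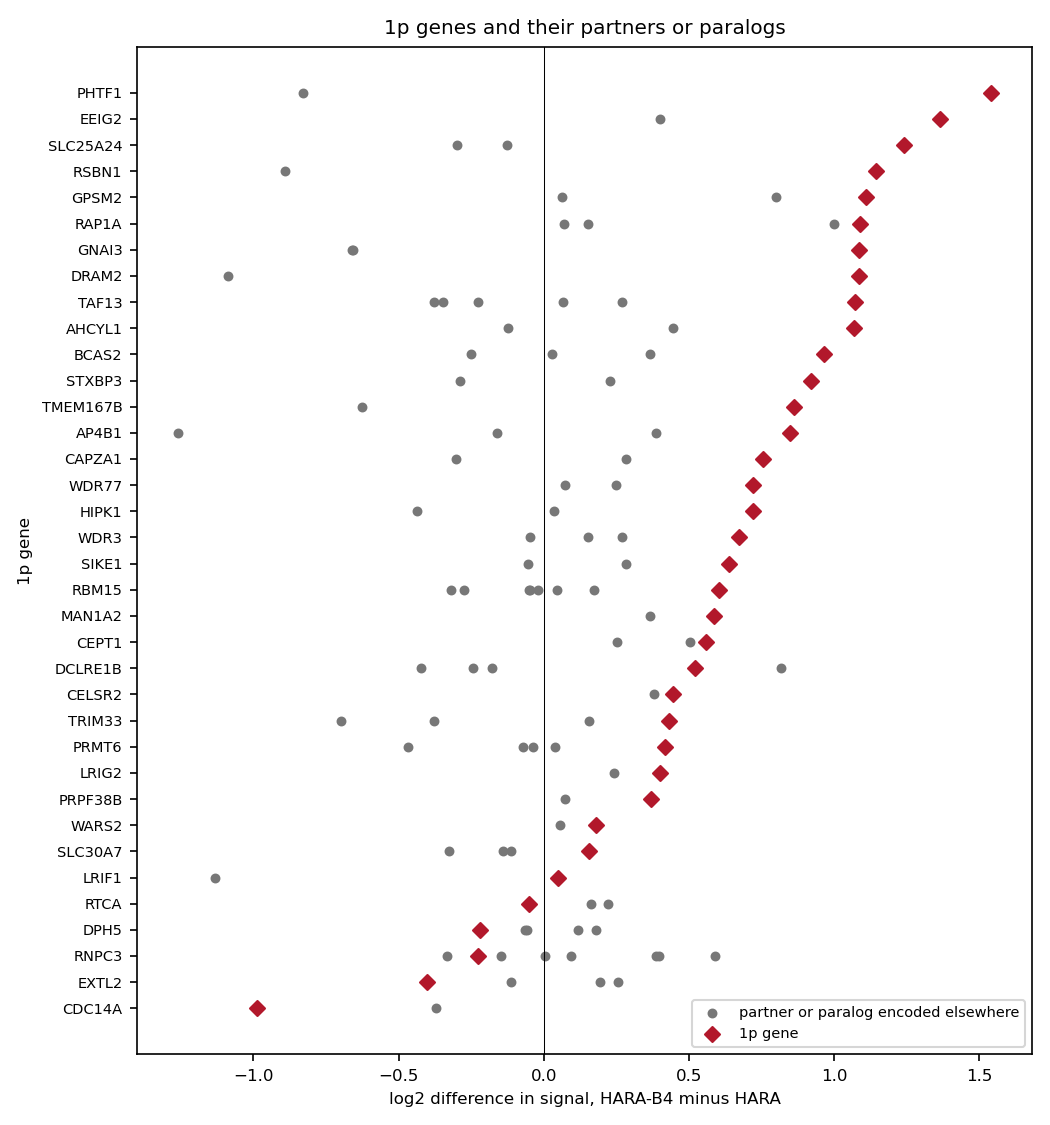
Log2 difference in signal, HARA-B4 minus HARA (x axis), for 36 of the 1p genes (red diamonds, sorted) and their partners or paralogs encoded elsewhere (grey points), all above background on both arrays. The grey points scatter around 0, while the diamonds run from -0.99 for CDC14A to 1.54 for PHTF1.

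Subunits of 1 complex differed unequally. In the PRP19 complex BCAS2 differed by 0.96, and CDC5L by 0.03, PRPF19 by -0.25 and PLRG1 by 0.37. In the heterodimer that caps actin filaments CAPZA1 differed by 0.75 and its paralog CAPZA2 by -0.30, with the shared beta subunit CAPZB at 0.28. In the methylosome WDR77 differed by 0.72, PRMT5 by 0.07 and CLNS1A by 0.25. In AP-4, AP4B1 differed by 0.85, AP4E1 by 0.39, AP4M1 by -0.16 and AP4S1, encoded on chromosome 14, by -1.26 (signals 368 and 153). In the m6A methyltransferase RBM15 differed by 0.60 on its brightest probe set, but by 0.15 on another with signals of 280 and 310, and WTAP differed by 0.17, METTL3 by -0.28, METTL14 by -0.02 and the paralog RBM15B by -0.05. Of the TFIID subunits beside TAF13, TAF11, its binding partner, differed by 0.07 and the others by -0.38 to 0.27.

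Some paralogs differed in the opposite direction and others in the same one, and the examples were picked after their values were seen. GNAI3 differed by 1.09, and its paralogs GNAI1 (signals 537 and 341) and GNAI2 (236 and 149) both by -0.66. RAP1A differed by 1.09 and RAP1B, its close paralog, by 0.15 (signals 2012 and 2234). DRAM2 differed by 1.09 and DRAM1 by -1.09 (signals 147 and 69.0). PHTF1 differed by 1.54 and PHTF2 by -0.83, and RSBN1 by 1.14 and RSBN1L by -0.89. HIPK1 differed by 0.72, with HIPK2 at -0.44 and HIPK3 at 0.03. TRIM33 differed by 0.43 on its brightest probe set, and by 0.88 and 1.05 on others, and TRIM24 by -0.70. LRIF1 differed by 0.05 and its partner SMCHD1, which is no paralog and is encoded on chromosome 18, by -1.13. Paralogs on the same side as the 1p gene included GPSM1 (0.80, with GPSM2 at 1.11), EEIG1 (0.40, with EEIG2 at 1.37), CELSR1 (0.38, with CELSR2 at 0.44) and LRIG3 (0.24, with LRIG2 at 0.40). The only partner at least 2-fold higher was the sorting receptor SORL1 (1.49), which is listed with a 1p gene not analysed here. Chromosome 7 encodes 12 of the 97 partners above background, GNAI1, PHTF2, RSBN1L, HIPK2, TRIM24 and CAPZA2 among them, and 11 of these 12 were below 0 with a median of -0.33, where 47.8% of all genes were below 0. Chromosome 9 encodes 7, of which 5 were above 0, with a median of 0.36. Both chromosomes were singled out after their values were seen. The 81 partners on chromosomes other than 7 and 14 had a median of 0.06.

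Several probe sets for a gene show how far these values depend on the probe set. The 50 analysed genes had 145 probe sets, of which 104 were above background on both arrays, and 32 genes had several such probe sets. All probe sets were above 0 in 24 of the 32, both signs occurred in 7, and CDC14A had only values below 0. The 7 were RTCA, DPH5, RNPC3, CLCC1, ST7L, IGSF3 and MAN1A2. Of the 16 genes at least 2-fold higher, 10 had several probe sets, and in 2 of these, AHCYL1 and CD58, every one was at least 2-fold higher. Those of CD58 all end in _x_at or _s_at, as do the brightest probe sets of 16 of the 49 genes above background. The within-gene SD among the listed genes was 0.36, against 0.30 over all genes.

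**Figure D5:**
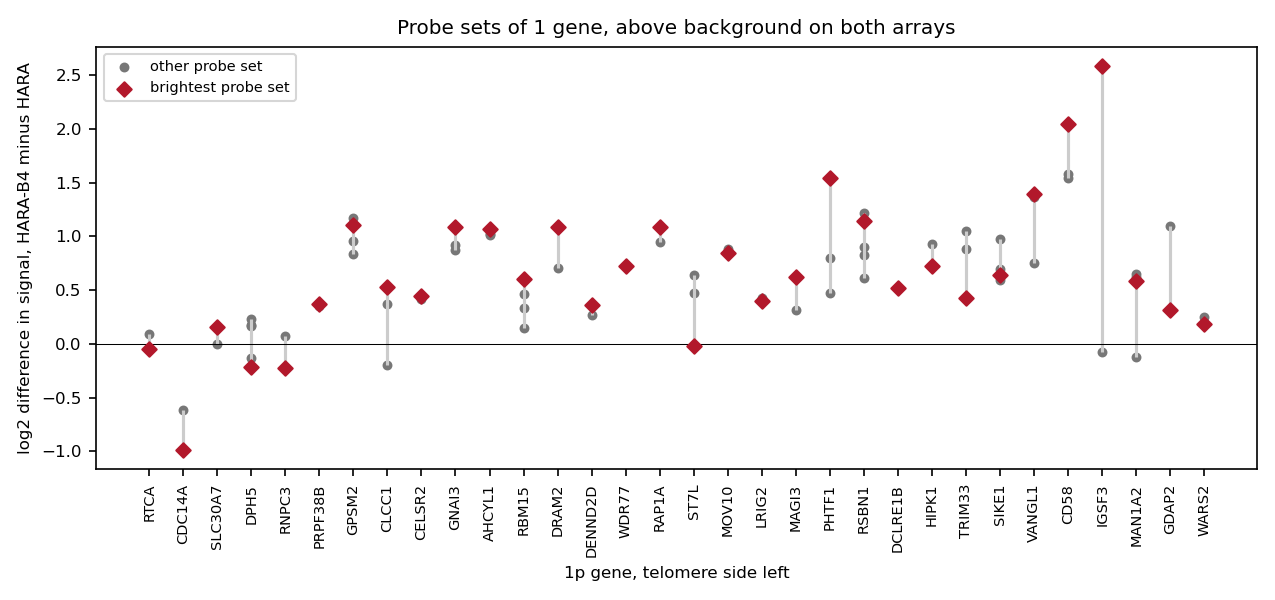
Log2 difference in signal, HARA-B4 minus HARA (y axis), of each probe set above background for the 32 genes with several (x axis, telomere side left), with the brightest probe set as a red diamond. Probe sets of AHCYL1, GNAI3 and WDR77 lie close together, while those of IGSF3 span -0.08 to 2.58.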

How the data were processed

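The deposited table gives a linear intensity (signal) for each probe set on 1 Affymetrix array per line. The authors used Affymetrix Expression Console, per the submitters' processing notes, and the sources used here do not state its settings. Signals were taken to log2 with no further scaling. Of 54675 probe sets, 41097 had 1 gene symbol in the platform annotation, 1801 several and 11777 none, and 41043 were matched by Entrez ID to RefSeq (GRCh38.p14), which gave gene order and promoters. Each gene took its brightest probe set, by the mean log2 signal of both arrays. With 1 array per line no test is possible, and precision is limited by the number of arrays. The members, role groups, partner list and alternatives were chosen with earlier results of these data known. Every analysed gene of the list was named, with signals for those at least 2-fold apart, the 3 largest of each role group and the lowest 5, and partners at least 2-fold apart, with further partners chosen after their values were seen. Other genes of the interval were named at 2-fold, and the glutathione transferase genes, those naming the ends of stretches and those in promoter pairs were chosen after their values were seen. A planned comparison of protein sequences was not made. Scripts (Python 3.11.15, pandas 2.3.3, statsmodels 0.14.6) were tested on simulated data.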

Additional observations from a re-analysis of the deposited data

How the results depend on the processing

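There were 8 alternatives, namely centring on the median difference of all genes, quantile normalization, a lowess correction for level, a background raised by 1 on the log2 scale, no background filter, the mean of all probe sets of a gene, leaving out _x_at and _s_at probe sets, and log2(signal + 16). Across them the median of the listed genes ran from 0.59 to 0.71, and that of all genes of the interval from 0.38 to 0.78. The count at least 2-fold higher ran from 11 (of 42 genes) to 16 (of 49 or 50), beside 2.39% to 11.5% of all genes. The count at least 1.5-fold higher ran from 21 (of 41) to 30 (of 49), beside 7.86% to 19.3% of all genes. Both upper shares of all genes came with no background filter. Flank medians lay between -0.09 and 0.08, also with 10 or 50 genes in a flank, and the partners' median between -0.060 and 0.0033. The median of the other genes of the interval moved to 0.96 with the raised background and to -0.044 with no background filter, which brings in genes below background. With the mean of all probe sets SLC25A24 (-0.32), CAPZA1 (-0.72) and MAN1A2 (-0.096) turned negative. That mean includes probe sets below background, such as one of CAPZA1 with signals of 6.23 and 1.36. Of 374 single-gene values, 357 moved by less than the within-gene SD of 0.30, 14 by more, and the 3 just named by more with a turned sign. The raised background and the lack of a filter cannot alter a gene's own difference, and centring shifts every gene by the same 0.02. Values under these alternatives could not move by more than that SD and are among the 357, so they say nothing of stability. The sign also turned for ST7L (0.03 with quantile normalization and 0.67 with the mean), DPH5 (0.045 with the mean and 0.18 without _x_at and _s_at probe sets) and RNPC3 (0.076 without them), which were -0.02, -0.22 and -0.23. No paired analysis was possible because each line has 1 array.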

Other observations

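Most unlisted genes between the listed ones were not above background. Of 86 such genes, 57 were below background on both arrays, among them the endothelial adhesion gene VCAM1, the T cell receptor CD2, to which CD58 binds, and the thyrotropin subunit TSHB. Another 5 were above background in HARA only, all by less than 1.5-fold over the background level. COL11A1, a fibrillar collagen chain, was one of them, with signals of 34.1 in HARA and 8.44 in HARA-B4, at least 1.26-fold lower. Only LAMTOR5-AS1, which runs antisense to the neighbouring LAMTOR5, was above background in HARA-B4 alone, at 41.9 against 6.60 in HARA, at least 1.54-fold higher.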
